A study of Homo sapiens with 8 samples.

Results

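The genes described here are 32 established targets of the transcription factor p53, given as a list of symbols and found in the deposited count table. All 32 matched a gene, out of 63140 genes in the table. The rule that picks the genes from the table is by name and reads no value, but the list was drawn up with earlier results of these data known. Of the 32, 31 had enough counts to be tested, and SPATA18, which acts in mitochondrial quality control, had a count of 0 in all 8 libraries. A count of 0 allows up to 3 counts, which in the shallowest library is 0.146 CPM (counts scaled to a common library total).

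The libraries hold RNA from ChIRP (chromatin isolation by RNA purification), in which biotinylated DNA probes pull an RNA and what is cross-linked to it out of fixed, sonicated cells. The target of the probes is not given in the sources used here and no input library was analysed, so each value is an amount of RNA in a pull-down. The library titles name the cells as MOLM13 and OCI-AML4, established human acute myeloid leukaemia lines, taken on day 3 after editing. The line of each library rests on its title alone. Every group had been nucleofected with an editor and guide RNAs. In AAVS1 KO (labelled wild type) and HOTSCRAMBL KO the editor was a Cas9 ribonucleoprotein (RNP), which cuts both DNA strands. In AAVS1 CBE (labelled wild type) and HOTSCRAMBL CBE it was a cytosine base editor, which rewrites C to T without that cut. AAVS1 is the control site and HOTSCRAMBL a long non-coding RNA. Each of the 4 groups held 2 libraries, replicate 1 labelled MOLM13 and replicate 2 labelled OCI-AML4. The labels do not say whether the cells are an edited pool or a clone, and p-values measure only the spread between these libraries. The table has 0 genes named HOTSCRAMBL, and the level of the targeted RNA is not analysed here.

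p53 is kept low in unstressed cells by MDM2 and MDM4 and is stabilised after DNA damage and other stresses. It then switches on genes that stop the cell cycle, repair DNA, trigger apoptosis and, through MDM2 and PPM1D, switch p53 off again. The cell cycle arm runs mainly through p21, the product of CDKN1A: by inhibiting cyclin-dependent kinases it lets the DREAM repressor complex shut down genes of mitosis and replication. In myeloid leukaemia this pathway governs much of the response to DNA-damaging drugs.

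A p53 response element is built from decamers, each made of 3 purines, a C, A or T at the next positions, a G and 3 pyrimidines. The decamer was looked for in RefSeq promoters (assembly GRCh38.p14, from 250 bases before to 50 bases after the start), which were at hand for 25 of the 32 genes. It was found in 3 of them (12%), those of PLK2, AEN and FDXR, and in 6.54% of all 27305 promoters. A pair of decamers with at most 13 bases between them was in 0 of the 25 and in 0.0293% of all promoters. The 3 matches are shown because they allow the genes' sequences and values to be read side by side, with the decamer in capitals and each sequence written 5′ to 3′ along the gene's own strand.
PLK2, chr5:58460199-58460228, minus strand, decamer starting at −132 from the RefSeq start: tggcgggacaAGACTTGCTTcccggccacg
AEN, chr15:88621296-88621325, plus strand, decamer starting at −34: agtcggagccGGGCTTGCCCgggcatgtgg
FDXR, chr17:74872995-74873015, minus strand, decamer starting at −11: gggcaggagcGGGCTTGCCCt
AEN and FDXR hold the same decamer, and PLK2 holds another. In the GENCODE v29 annotation, whose transcript starts differ from those of RefSeq, these stretches lie inside exons. A match describes letters only, and well known p53 elements, such as those of CDKN1A and MDM2, lie outside so short a window.

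Total counts ran from 20548300 to 37970163 per library, and 28 of the 32 genes had at least 100 counts in every library. Of the 32 genes, 16 share exon bases with another annotated gene, from 0.205% of PIDD1 to 24.6% of XPC, and without strand such genes cannot be told apart there. The 8 myeloid leukaemia markers summed to between 989 and 1163 CPM in the AAVS1 and HOTSCRAMBL CBE libraries, and to 1290 and 1444 CPM in HOTSCRAMBL KO, while T cell markers summed to at most 2.24 CPM (CD3E and CD2 at 0) and erythroid markers to at most 0.225 CPM (HBB and HBA2 at 0). The higher myeloid sum in HOTSCRAMBL KO came mainly from LYZ, at 125 and 150 CPM in AAVS1 KO and 483 and 652 CPM in HOTSCRAMBL KO. Of the 8 myeloid markers, 6 had estimates below 0 with KO, and 0 of these were called. LYZ and CSF1R were called higher by the edgeR test used below (25%, where 8.76% of all genes were called). B cell markers summed to between 6.0 and 11.0 CPM in all libraries. The stroma and epithelium list summed to between 99.7 and 107 CPM outside HOTSCRAMBL KO and to 172 and 138 CPM in it, nearly all from PECAM1, an endothelial gene that myeloid cells also use. A pair of broad shifts moved with HOTSCRAMBL under both editors. Mitochondrially encoded RNA took 6.77% to 7.23% of counts in the AAVS1 libraries and 10.2% to 11.9% in the HOTSCRAMBL libraries, and 8 abundant cytosolic mRNAs took 0.370% to 0.451% and 0.725% to 0.892%. The part of these shifts in the results below was not tested, and in bulk pull-downs fewer cells of a type, less RNA per cell and less RNA recovered cannot be told apart.

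On a scale of CPM per kilobase of exon, which allows genes to be compared, TNFRSF10B and CDKN1A stood highest in the 4 AAVS1 libraries. TNFRSF10B, a death receptor gene, had a level of 50.1 ± 2.86 (SD, n = 4) and CDKN1A one of 48.1 ± 6.55. Both stood apart from MDM4 at 34.7 ± 3.32 and MDM2 at 32.8 ± 2.01, which negatively regulate p53 and overlapped with each other. From ASCC3 at 18.2 ± 1.71 down to CYFIP2 at 1.70 ± 0.443, each gene's range over the 4 libraries overlapped with that of the next gene in the order. FAS (0.706 ± 0.176), TIGAR (0.619 ± 0.310) and GDF15 (0.571 ± 0.431) were the lowest of the genes with any count, above SPATA18 at 0, and PLK2, at 3.49 ± 0.677, was 24th of 32. Genes such as FAS and GDF15 therefore rest on few reads relative to their length.

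With Cas9, RNA of several p53 targets was higher in the libraries targeting HOTSCRAMBL. PLK2 rose 7.56-fold, CYFIP2 2.77-fold and BTG2 2.34-fold, while ZMAT3, CDKN1A, RRM2B and MDM2 rose between 1.60-fold and 1.81-fold. PIDD1 fell to 0.625 of its AAVS1 level. The comparison asked how targeting HOTSCRAMBL with the nuclease changed recovered RNA against the nuclease at the control site. By the edgeR quasi-likelihood test with Benjamini-Hochberg adjustment over 24057 genes, 8 of the 31 genes tested passed an adjusted p of 0.05 (25.8%), where 8.76% of all genes did. They were 7 higher and 1 lower, against 4.51% and 4.25% of all genes. Among genes with a mean count of at least 100, the shares were 26.7% of 30 p53 targets and 15.3% of all. The median log2 fold change of the 31 genes was 0.38, against −0.01 over all genes tested, and 26 of 31 estimates lay above 0. The HOTSCRAMBL KO and AAVS1 KO libraries did not overlap for 20 of the 31 genes, 17 higher and 3 lower in HOTSCRAMBL, where 44.8% of all genes showed no overlap in either direction. All 8 called genes moved one way in both pairs of libraries. Without TMM scaling the median of all genes shifted to −0.17, 840 of 2535 calls over all genes were higher in place of 1085 of 2108, the median of the p53 targets was 0.23 and 19 of 31 lay above 0, with the same 8 genes called and FBXO22 added as lower, where 10.5% of all genes passed. DESeq2 called 10, adding ASCC3 and TRIAP1 as higher, where it called 17.6% of all genes.

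With the base editor, 1 of the p53 targets rose and 2 fell. CCNG1 rose 2.38-fold, PIDD1 fell to 0.435 and PLK3 to 0.589 of the AAVS1 CBE level, and CDKN1A and MDM2 had log2 fold changes of −0.12 (95% interval −0.39 to 0.16) and −0.14 (−0.37 to 0.09). In edgeR, 3 of the 31 genes passed (9.68%), where 8.83% of all genes did, so the share was near the background. They were 1 higher and 2 lower, against 4.56% and 4.27% of all genes. With a mean count of at least 100, 10.0% of 30 p53 targets and 16.0% of all genes passed. The median log2 fold change was −0.12, against −0.02 over all genes, with 12 estimates above 0 and 19 below. The HOTSCRAMBL CBE and AAVS1 CBE libraries did not overlap for 15 genes, 6 higher and 9 lower in HOTSCRAMBL, where 46.4% of all genes showed no overlap. Without TMM scaling the median of all genes was −0.15, 782 of 2398 calls over all genes were higher in place of 1096 of 2124, and 6 p53 targets were called, 5 of them lower, with TNFRSF10B, XPC and ZMAT3 added, where 9.97% of all genes passed. DESeq2 called 8 (2 higher, 6 lower), adding BTG2, DDB2, RRM2B, XPC and ZMAT3, where it called 14.3% of all genes.

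The difference between the editors was tested directly, as the HOTSCRAMBL effect with KO minus that with CBE. It was positive for 6 genes: PLK2 (log2 difference 3.41), BTG2 (1.86), ZMAT3 (1.53), PLK3 (1.19), CDKN1A (0.95) and MDM2 (0.82). These were 6 of 31 genes (19.4%), all in the same direction, where 3.19% of all genes passed and 1.74% passed in that direction (1.45% in the other). At a mean count of at least 100 the shares were 20.0% and 5.80%. The median difference was 0.42, against −0.01 over all genes, and 16 of 31 genes had an estimate above 0 with KO and below 0 with CBE. DESeq2 called 10 genes, all positive, adding ASCC3, CYFIP2, DDB2 and XPC, where it called 9.52% of all genes. PIDD1 was called with both editors, and 10 of the 31 genes with at least 1 of them. The matching shares over all genes were not computed, so these counts have no background beside them. Singly, 8.76% of all genes were called with KO and 8.83% with CBE. Between the 2 control groups 0 of the 31 genes passed in edgeR (1 at an unadjusted p under 0.05, 0 by DESeq2), as did 0 of 24057 genes over the table (918 at an unadjusted p under 0.05, 35 by DESeq2).

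**Figure D1:**
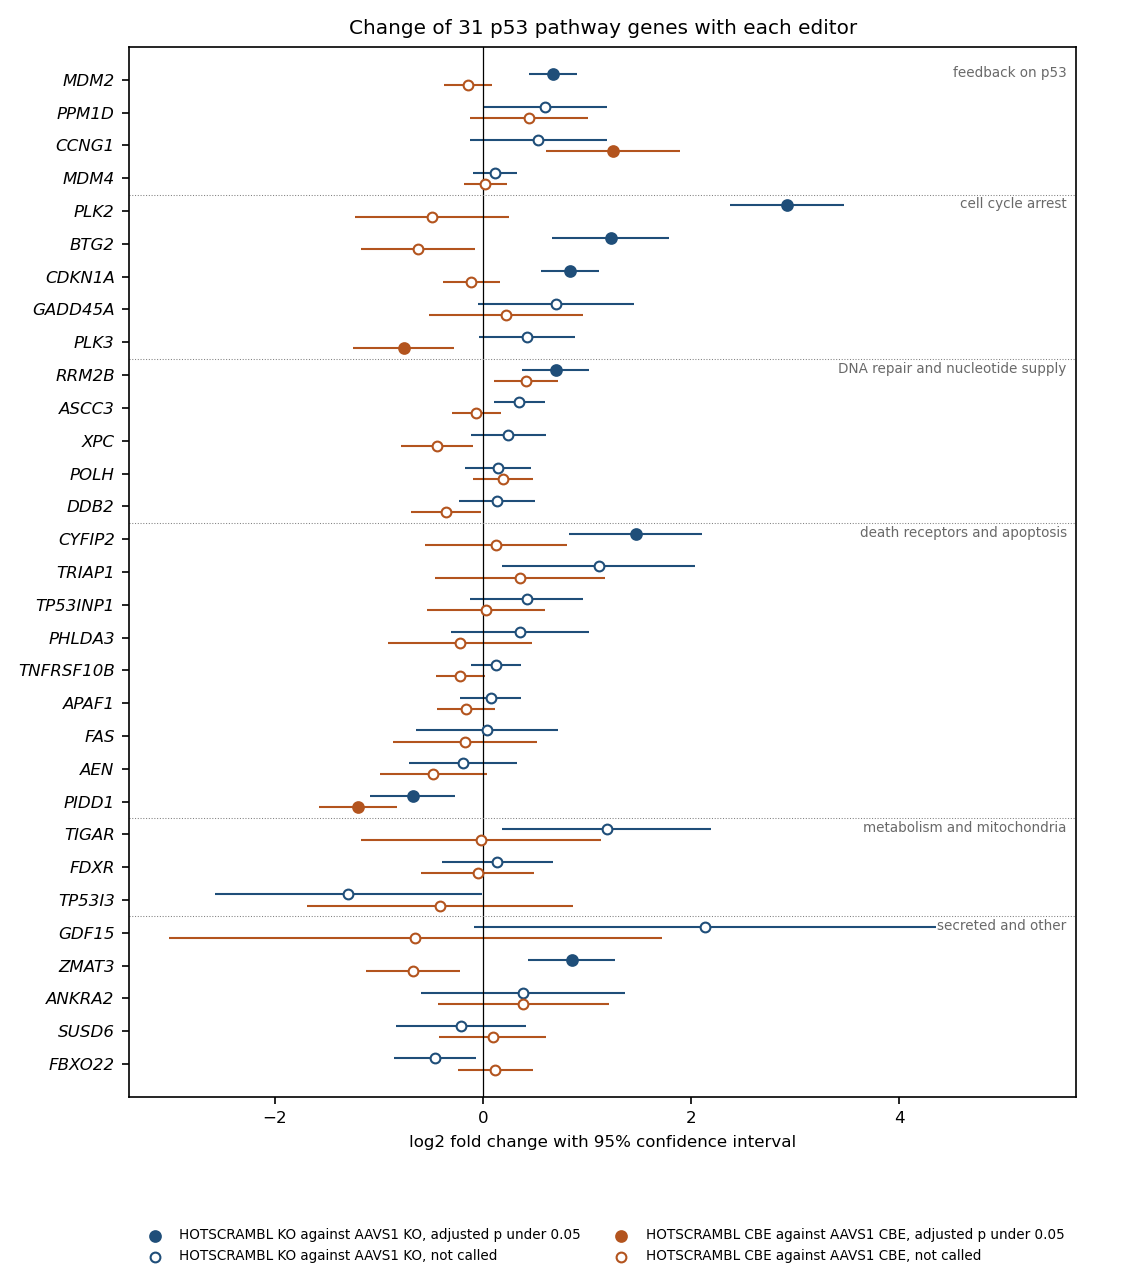
Log2 fold change of HOTSCRAMBL against AAVS1 with Cas9 (blue) and with the base editor (orange) for the 31 p53 targets tested, grouped by role, with 95% confidence intervals; filled points passed an adjusted p of 0.05. The blue points lie to the right of 0 for 26 genes and the orange points for 12, and PLK2 with KO, at 2.92, lies farthest from 0.

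Among the genes that feed back on p53, MDM2 encodes the ubiquitin ligase that marks p53 for degradation and is itself induced by p53. MDM2 (ENSG00000135679, chromosome 12, 68808177 to 68845544, GRCh38) stood at 284 and 252 CPM with Cas9 at AAVS1, 402 and 450 with Cas9 at HOTSCRAMBL, 289 and 266 with the base editor at AAVS1, and 260 and 242 with it at HOTSCRAMBL, replicate 1 first. The HOTSCRAMBL KO libraries were the highest of the 8 and apart from all others. Its log2 fold change was 0.67 (edgeR adjusted p 0.000155, SE 0.113) with KO, and it passed under every alternative tried. Other genes share 14.7% of its exon bases. The difference between editors was 0.82 (edgeR adjusted p 0.00273, SE 0.159). That call was lost without AAVS1 CBE replicate 1, AAVS1 KO replicate 2, HOTSCRAMBL CBE replicate 2 or HOTSCRAMBL KO replicate 2, where the adjusted p was 0.0699, 0.0949, 0.0518 and 0.0667.

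CCNG1 encodes cyclin G1, which recruits a phosphatase to MDM2, and was the one p53 target called higher with the base editor. CCNG1 (ENSG00000113328, chromosome 5, 163437569 to 163446151) was at 16.3 and 19.8 CPM with Cas9 at AAVS1, 23.8 and 28.3 with Cas9 at HOTSCRAMBL, 11.0 and 11.1 with the base editor at AAVS1, and 25.2 and 27.5 with it at HOTSCRAMBL. HOTSCRAMBL exceeded AAVS1 under each editor, and the AAVS1 CBE libraries were the lowest. For CCNG1 the log2 fold change was 1.25 (edgeR adjusted p 0.00998, SE 0.314) with CBE and 0.53 (edgeR adjusted p 0.377, SE 0.319) with KO. The difference between the editors, −0.72 (95% interval −1.65 to 0.22), did not pass. The CBE call was lost without any 1 of the 4 libraries of that comparison: the adjusted p was 0.122 and 0.163 without AAVS1 CBE replicates 1 and 2, and 0.195 and 0.0858 without HOTSCRAMBL CBE replicates 1 and 2.

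PPM1D, the phosphatase that resets p53 after damage, had log2 fold changes of 0.59 with KO (95% interval −0.00 to 1.19) and 0.44 with CBE (−0.13 to 1.01). MDM4, the close relative of MDM2, was at 0.12 with KO (−0.09 to 0.33) and 0.02 with CBE (−0.18 to 0.23). Of these 4 feedback genes, MDM2 was called higher with KO and a different gene, CCNG1, with CBE, and none was called lower. Over all genes, 4.51% were called higher with KO and 4.56% with CBE.

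**Figure D2:**
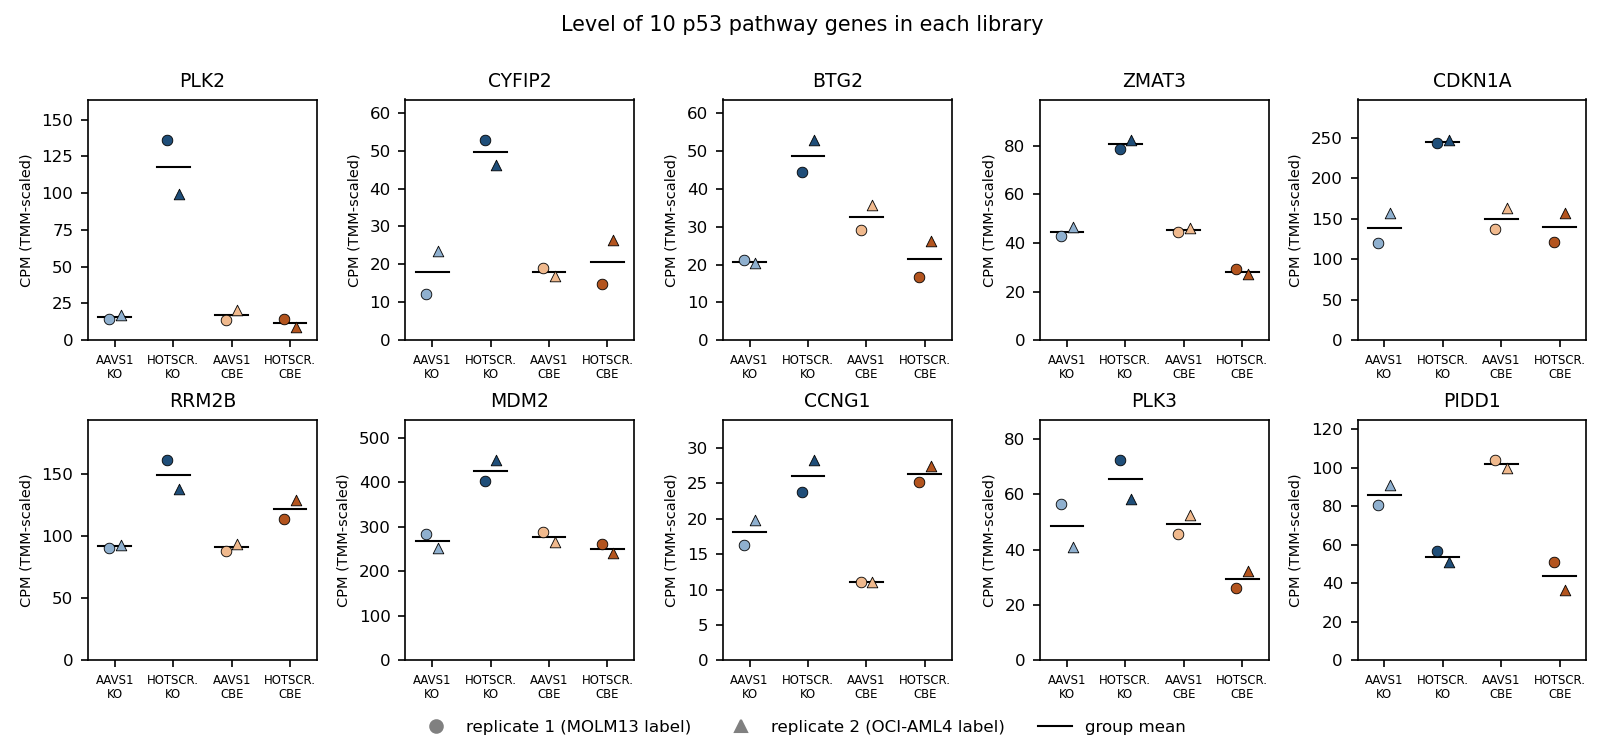
CPM after TMM scaling in each library for the 10 p53 targets called with at least 1 editor; circles are replicate 1, triangles replicate 2 and the line is the group mean of 2 libraries. In the PLK2 panel the HOTSCRAMBL KO libraries lie at 136 and 99.3 CPM while the other 6 lie at 20.4 CPM or below.

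Of the cell cycle arrest genes, PLK2, CDKN1A and BTG2 rose with KO and PLK3 fell with CBE. PLK2 encodes a polo-like kinase that acts at centrioles and is induced by stress. PLK2 (ENSG00000145632, chromosome 5, 58453982 to 58460139), whose promoter decamer is shown above, was at 14.2 and 16.8 CPM with Cas9 at AAVS1, 136 and 99.3 with Cas9 at HOTSCRAMBL, 13.4 and 20.4 with the base editor at AAVS1, and 14.3 and 8.86 with it at HOTSCRAMBL. Only the HOTSCRAMBL KO libraries were high, and the libraries of the other 3 groups overlapped. On the log2 scale its change was 2.92 (edgeR adjusted p 9.46e-09, SE 0.265) with KO and −0.49 (edgeR adjusted p 0.495, SE 0.361) with CBE, and the difference of 3.41 (edgeR adjusted p 3.36e-05, SE 0.46) passed under every alternative tried. AEN and FDXR, the other holders of a decamer, had log2 fold changes of −0.20 (95% interval −0.72 to 0.32) and 0.14 (−0.40 to 0.67) with KO.

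CDKN1A, which encodes p21, is the best known p53 target. CDKN1A (ENSG00000124762, chromosome 6, 36676460 to 36687337) was at 120 and 157 CPM with Cas9 at AAVS1, 243 and 248 with Cas9 at HOTSCRAMBL, 137 and 163 with the base editor at AAVS1, and 121 and 157 with it at HOTSCRAMBL. The HOTSCRAMBL KO libraries were again the highest, and in the other 3 groups replicate 2 exceeded replicate 1. Its log2 fold change was 0.83 (edgeR adjusted p 9.44e-05, SE 0.135) with KO, a call kept under every alternative tried. The difference between editors was 0.95 (edgeR adjusted p 0.00334, SE 0.189), and was lost without AAVS1 CBE replicate 1 or 2, AAVS1 KO replicate 1, HOTSCRAMBL CBE replicate 1 or HOTSCRAMBL KO replicate 1 (adjusted p 0.0509, 0.0524, 0.104, 0.0802 and 0.0779). Counting without strand cannot separate CDKN1A from the non-coding gene that shares 4.87% of its exon bases.

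BTG2 encodes an antiproliferative protein that works with the mRNA deadenylation machinery. BTG2 (ENSG00000159388, chromosome 1, 203305491 to 203309602) was at 21.2 and 20.3 CPM with Cas9 at AAVS1, 44.5 and 53.01 with Cas9 at HOTSCRAMBL, 29.1 and 35.8 with the base editor at AAVS1, and 16.7 and 26.1 with it at HOTSCRAMBL. It was higher in HOTSCRAMBL than in AAVS1 with Cas9 and lower with the base editor, without overlap in either case. Fitted on the log2 scale, the change was 1.23 (edgeR adjusted p 0.00352, SE 0.273) with KO and −0.63 (edgeR adjusted p 0.166, SE 0.265) with CBE, with a difference of 1.86 (edgeR adjusted p 0.00441, SE 0.381). The KO call was lost without AAVS1 KO replicate 2, HOTSCRAMBL KO replicate 1 or HOTSCRAMBL KO replicate 2 (adjusted p 0.17, 0.0611 and 0.0667), and the difference without any 1 of 6 libraries, with adjusted p from 0.0503 (HOTSCRAMBL KO replicate 2) over 0.0533 (HOTSCRAMBL KO replicate 1), 0.0548 and 0.0561 (AAVS1 CBE replicates 2 and 1) and 0.0984 (HOTSCRAMBL CBE replicate 1) to 0.118 (AAVS1 KO replicate 2). BTG2 was also the single gene of the 31 with an unadjusted p under 0.05 between the controls, at a log2 fold change of −0.64 for AAVS1 KO against AAVS1 CBE (edgeR adjusted p 0.991).

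PLK3, another polo-like kinase of the stress response, fell with the base editor. PLK3 (ENSG00000173846, chromosome 1, 44800377 to 44805990) was at 56.3 and 40.8 CPM with Cas9 at AAVS1, 72.3 and 58.3 with Cas9 at HOTSCRAMBL, 45.6 and 52.6 with the base editor at AAVS1, and 26.2 and 32.3 with it at HOTSCRAMBL. The HOTSCRAMBL CBE libraries were the lowest of the 8 and the HOTSCRAMBL KO libraries the highest. The estimated log2 fold change was −0.76 (edgeR adjusted p 0.0402, SE 0.235) with CBE and 0.42 (edgeR adjusted p 0.305, SE 0.225) with KO, and the difference was 1.19 (edgeR adjusted p 0.0419, SE 0.326). Both calls lay close to the threshold and both were lost without any 1 of the 8 libraries, with the adjusted p reaching 0.616 for CBE and 0.422 for the difference without HOTSCRAMBL CBE replicate 1, and also in a fit without the replicate block (0.0575 and 0.065). GADD45A, which binds the replication clamp and slows growth, was at 15.8 and 13.8 CPM with Cas9 at AAVS1 and 16.4 and 31.4 with Cas9 at HOTSCRAMBL, and its log2 fold change of 0.70 (95% interval −0.05 to 1.45) did not pass. With KO, 3 of the 5 arrest genes were called, all higher, where 8.76% of all genes were called and 4.51% called higher. In 5 of 5, both HOTSCRAMBL libraries lay above both AAVS1 libraries. Over all genes, 44.8% had no overlap in either direction, and the share for higher alone was not computed. With CBE 1 of the 5 was called, PLK3 as lower, where 8.83% of all genes were called.

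Of the DNA repair and nucleotide supply genes, RRM2B passed with KO. It encodes the p53-inducible small subunit of ribonucleotide reductase, which supplies nucleotides for repair. RRM2B (ENSG00000048392, chromosome 8, 102204502 to 102238961) was at 91.0 and 93.3 CPM with Cas9 at AAVS1, 162 and 138 with Cas9 at HOTSCRAMBL, 88.2 and 94.2 with the base editor at AAVS1, and 114 and 129 with it at HOTSCRAMBL. The 4 AAVS1 libraries agreed closely and all 4 HOTSCRAMBL libraries stood above them. For RRM2B the log2 fold change was 0.70 (edgeR adjusted p 0.00359, SE 0.155) with KO and 0.41 (edgeR adjusted p 0.0915, SE 0.149) with CBE, with a difference of 0.29 (95% interval −0.16 to 0.73, edgeR adjusted p 0.609). The KO call was lost without AAVS1 KO replicate 1, AAVS1 KO replicate 2 or HOTSCRAMBL KO replicate 1 (adjusted p 0.117, 0.082 and 0.163).

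ASCC3, a helicase that works with alkylation repair and stalled ribosomes, had a log2 fold change of 0.35 with KO (95% interval 0.11 to 0.59, edgeR adjusted p 0.0649, called by DESeq2) and −0.07 with CBE. XPC and DDB2, which recognise damage for nucleotide excision repair, were at 0.24 and 0.13 with KO and at −0.45 (−0.79 to −0.10) and −0.36 (−0.70 to −0.02) with CBE, in edgeR without passing (adjusted p 0.108 and 0.212). Both were below their controls in both HOTSCRAMBL CBE libraries. XPC shares 24.6% of its exon bases with genes on the other strand, so its counts are uncertain. POLH, the polymerase that copies past ultraviolet lesions, was at 0.14 with KO and 0.19 with CBE.

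In the group of death receptors and apoptosis, CYFIP2 rose with KO and PIDD1 fell with both editors. CYFIP2 is a subunit of the WAVE actin-regulating complex that p53 also induces. CYFIP2 (ENSG00000055163, chromosome 5, 157266079 to 157395595) was at 12.3 and 23.6 CPM with Cas9 at AAVS1, 52.9 and 46.2 with Cas9 at HOTSCRAMBL, 19.1 and 16.9 with the base editor at AAVS1, and 14.7 and 26.3 with it at HOTSCRAMBL. The HOTSCRAMBL KO libraries were higher than the other 6, which overlapped. On the log2 scale its change was 1.47 (edgeR adjusted p 0.00223, SE 0.311), lost without AAVS1 KO replicate 1 (adjusted p 0.194) or HOTSCRAMBL KO replicate 1 (0.147), and the difference between editors was 1.34 (edgeR adjusted p 0.132, SE 0.46).

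PIDD1 encodes the death domain protein of the PIDDosome, the platform that activates a caspase. PIDD1 (ENSG00000177595, chromosome 11, 799179 to 809753) was at 80.7 and 91.2 CPM with Cas9 at AAVS1, 56.7 and 50.9 with Cas9 at HOTSCRAMBL, 104 and 99.7 with the base editor at AAVS1, and 50.8 and 36.6 with it at HOTSCRAMBL. All 4 HOTSCRAMBL libraries were below all 4 AAVS1 libraries. Its log2 fold change was −1.20 (edgeR adjusted p 4.60e-05, SE 0.182) with CBE, kept under every alternative tried, and −0.68 (edgeR adjusted p 0.0297, SE 0.198) with KO. The KO call was lost without AAVS1 CBE replicate 1 or 2, AAVS1 KO replicate 1 or 2, or HOTSCRAMBL KO replicate 1 or 2, with adjusted p of 0.0699, 0.0688, 0.0924, 0.425, 0.177 and 0.213. The difference of 0.52 (95% interval −0.04 to 1.08, edgeR adjusted p 0.399) did not pass.

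Neither death receptor gene passed. TNFRSF10B was at a log2 fold change of 0.12 with KO (95% interval −0.12 to 0.37) and −0.22 with CBE (−0.46 to 0.02), and FAS at 0.04 (−0.65 to 0.72) and −0.17 (−0.86 to 0.52). APAF1, the scaffold of the apoptosome, was at 0.07 with KO (−0.22 to 0.37) and −0.16 with CBE (−0.44 to 0.11). TRIAP1, a small inhibitor of apoptosis, was at 7.92 and 6.24 CPM with Cas9 at AAVS1 and 12.7 and 17.8 with Cas9 at HOTSCRAMBL, and its log2 fold change of 1.11 (edgeR adjusted p 0.146, SE 0.451) did not pass in edgeR, while DESeq2 called it. TP53INP1, a stress protein that amplifies p53 activity, and PHLDA3, an inhibitor of AKT, had estimates of 0.42 and 0.35 with KO and 0.03 and −0.22 with CBE. AEN, a nuclease of apoptotic cells, was at −0.20 and −0.48.

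The metabolic genes gave no call with either editor. TIGAR, which lowers glycolytic flux, was at 3.37 and 8.96 CPM with Cas9 at AAVS1 and 9.23 and 18.7 with Cas9 at HOTSCRAMBL, and its log2 fold change of 1.19 (edgeR adjusted p 0.156, SE 0.489) did not pass. TP53I3, an oxidoreductase linked to reactive oxygen, was at 6.62 and 10.2 CPM with Cas9 at AAVS1 and 3.47 and 3.40 with Cas9 at HOTSCRAMBL, with a log2 fold change of −1.29 (edgeR adjusted p 0.242, SE 0.623). Their estimates pointed in opposite directions. For each, the HOTSCRAMBL KO and AAVS1 KO libraries did not overlap, as for 44.8% of all genes. Neither passed after adjustment over all genes tested. FDXR, which passes electrons to mitochondrial cytochromes, was at 0.14 with KO (95% interval −0.40 to 0.67) and −0.05 with CBE (−0.60 to 0.49).

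Of the remaining genes, ZMAT3 encodes an RNA-binding zinc finger protein that acts on the splicing and stability of other transcripts. ZMAT3 (ENSG00000172667, chromosome 3, 178960121 to 179072215) was at 42.7 and 46.6 CPM with Cas9 at AAVS1, 78.7 and 82.6 with Cas9 at HOTSCRAMBL, 44.4 and 46.3 with the base editor at AAVS1, and 29.1 and 27.3 with it at HOTSCRAMBL. The 4 AAVS1 libraries lay within 4 CPM of each other, HOTSCRAMBL KO lay above them and HOTSCRAMBL CBE below. Fitted on the log2 scale, the change was 0.85 (edgeR adjusted p 0.00614, SE 0.203) with KO and −0.68 (edgeR adjusted p 0.0539, SE 0.22) with CBE, and the difference was 1.53 (edgeR adjusted p 0.00272, SE 0.299). The KO call was lost without AAVS1 KO replicate 1 or 2 or HOTSCRAMBL KO replicate 1 or 2 (adjusted p 0.159, 0.0867, 0.0714 and 0.0885), and the difference without AAVS1 KO replicate 1 (0.0598). With CBE, ZMAT3 passed by DESeq2 and 4 other alternatives.

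GDF15, a secreted stress cytokine that is often used as a readout of p53, could not be judged. It was at 1.41 and 0.240 CPM with Cas9 at AAVS1, 1.38 and 5.81 with Cas9 at HOTSCRAMBL, 0.780 and 2.33 with the base editor at AAVS1, and 1.39 and 0.276 with it at HOTSCRAMBL. HOTSCRAMBL KO replicate 2 alone was high, and the groups overlapped. The log2 fold change of 2.13 with KO had a 95% interval from −0.09 to 4.36 (edgeR adjusted p 0.275). FBXO22, the substrate receptor of a ubiquitin ligase, was at −0.46 with KO (−0.86 to −0.07, edgeR adjusted p 0.156) and 0.12 with CBE. SUSD6, a sushi domain membrane protein, was at −0.21 and 0.09, and ANKRA2, an ankyrin repeat protein, at 0.38 and 0.39.

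Of 19 tested regulators of p53 (5.26% called with each editor, below the share of all genes), 1 was called with KO, TP53BP1 (log2 fold change −0.56, edgeR adjusted p 0.048), and 1 with CBE, CREBBP (0.45, edgeR adjusted p 0.0138), and 0 differed between editors (5 at an unadjusted p under 0.05). TP53BP1, a damage response adaptor, lost its call under 12 of 17 alternatives, and its log2 fold change was −0.39 without HOTSCRAMBL KO replicate 1. It shares 28.8% of its exon bases with TUBGCP4 on the other strand, so its counts are uncertain. CREBBP, an acetyltransferase and p53 coactivator, lost it under 6, with adjusted p of 0.153, 0.235 and 0.306 without AAVS1 CBE replicate 1, AAVS1 CBE replicate 2 and HOTSCRAMBL CBE replicate 2.

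A further 38 p53 targets outside the 32 were read in the same way, and 34 were tested. With KO, 8 passed in edgeR (23.5%), 7 higher and 1 lower, where 8.76% of all genes passed. With CBE, 3 passed (8.82%), 2 higher and 1 lower, where 8.83% of all genes passed, so this share was that of the background. PMAIP1, which encodes the death protein NOXA, was at 39.9 and 52.5 CPM with Cas9 at AAVS1, 182 and 203 with Cas9 at HOTSCRAMBL, 40.4 and 58.2 with the base editor at AAVS1, and 37.0 and 48.9 with it at HOTSCRAMBL. As with PLK2, only HOTSCRAMBL KO was high, with a log2 fold change of 2.06 (edgeR adjusted p 1.58e-09, SE 0.172). ALOX5, a leukotriene enzyme of myeloid cells, rose by 1.96 on the log2 scale, IER5, an immediate early gene, by 1.15 and TRIM22, an antiviral ubiquitin ligase, by 0.78 (edgeR adjusted p 6.97e-07, 1.98e-06 and 0.000336). The TRIM22 call was lost without AAVS1 KO replicate 2 or HOTSCRAMBL KO replicate 2 (adjusted p 0.0789 and 0.0672).

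BBC3, which encodes the death protein PUMA, rose with both editors. It was at 223 and 378 CPM with Cas9 at AAVS1, 382 and 493 with Cas9 at HOTSCRAMBL, 228 and 358 with the base editor at AAVS1, and 432 and 706 with it at HOTSCRAMBL. Replicate 2 exceeded replicate 1 in every group, and within each replicate HOTSCRAMBL exceeded AAVS1. For BBC3 the log2 fold change was 0.57 (edgeR adjusted p 0.00092) with KO and 0.95 (edgeR adjusted p 5.11e-07) with CBE, and without the replicate block both calls were lost (adjusted p 0.567 and 0.308). The KO call was also lost without AAVS1 KO replicate 1 (0.109) or HOTSCRAMBL KO replicate 1 (0.096). SESN2, a brake on growth signalling, was 0.69 higher on the log2 scale with CBE (edgeR adjusted p 0.0137), and STEAP3, a metalloreductase, was lower with KO at −1.36 and with CBE at −1.12 (edgeR adjusted p 0.00661 and 0.0156). Both CBE calls were lost without any 1 of the 4 CBE libraries, with adjusted p from 0.07 to 0.345 for SESN2 and 0.075 to 0.385 for STEAP3. The median log2 fold change of the 34 genes was 0.18 with KO and −0.08 with CBE.

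**Figure D3:**
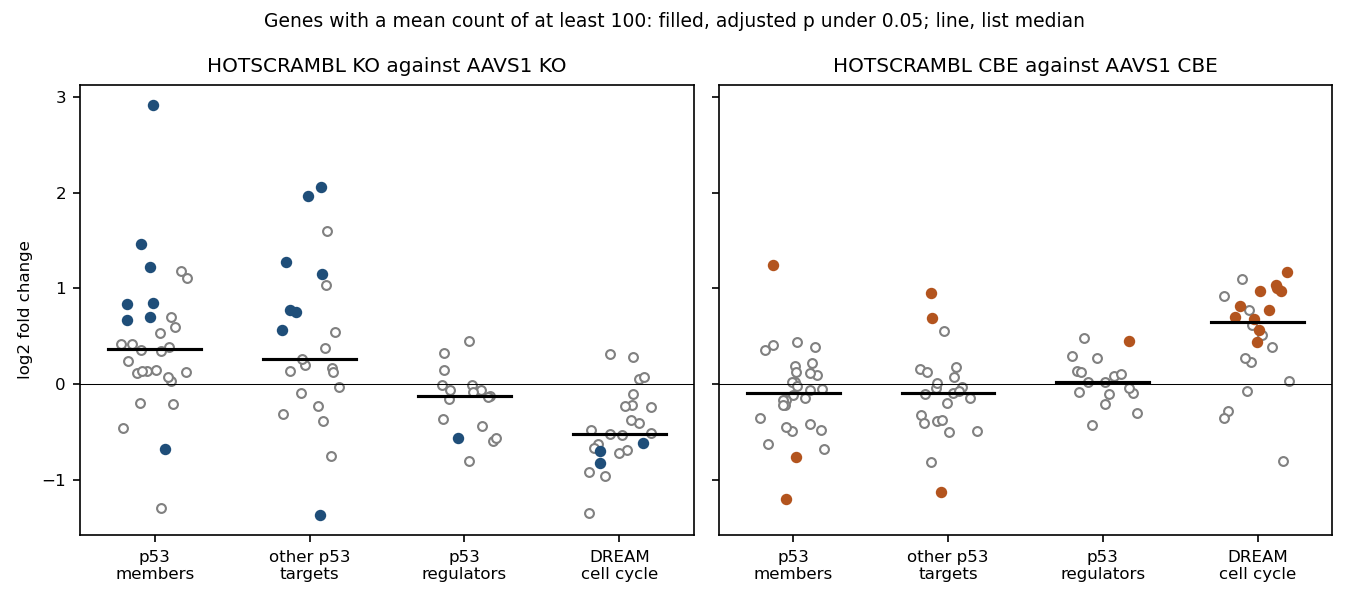
Log2 fold change of single genes with Cas9 (left) and with the base editor (right) in 4 gene lists, for genes with a mean count of at least 100; filled points passed an adjusted p of 0.05 and lines are list medians. The median of the p53 targets is 0.37 with KO and −0.09 with CBE, and the DREAM list lies mostly below 0 on the left and above 0 on the right.

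Among the cell cycle genes that p53 shuts down through p21 and the DREAM complex, 3 passed with KO, all lower, and 11 with CBE, all higher. The KO share was near that of all genes. All 25 genes of the list were tested. With KO the 3 made 12% in edgeR, where 8.76% of all genes passed, or 15.3% at a mean count of at least 100. Of all genes, 4.25% were called lower with KO. Of the 25 estimates 21 lay below 0, with a median log2 fold change of −0.52. With CBE the 11 made 44%, where 8.83% of all genes passed and 4.56% passed as higher. Of the 25 estimates with CBE, 20 lay above 0 and the median was 0.62. Between the editors 9 differed (36%), all lower with KO, where 3.19% of all genes did and 1.45% in that direction. These comparisons rest on the same libraries as those of the p53 targets, and this list, like that of the p53 targets, was chosen with earlier results of these data known, so its direction is not independent evidence.

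TOP2A, the topoisomerase that untangles chromosomes in mitosis, was at 103 and 89.8 CPM with Cas9 at AAVS1, 67.5 and 58.6 with Cas9 at HOTSCRAMBL, 102 and 75.2 with the base editor at AAVS1, and 188 and 176 with it at HOTSCRAMBL. It was lowest in HOTSCRAMBL KO and highest in HOTSCRAMBL CBE, without overlap. Its log2 fold change was −0.61 (edgeR adjusted p 0.0248, SE 0.174) with KO and 1.04 (edgeR adjusted p 1.20e-05, SE 0.143) with CBE. CENPF, a kinetochore protein, was at −0.83 with KO (edgeR adjusted p 2.77e-05) and 0.56 with CBE (0.0011), and BUB1B, a spindle checkpoint kinase, at −0.69 with KO (0.0175). MYBL2, PLK1 and CCNB1, which drive entry into mitosis, rose with CBE by 0.68, 0.81 and 0.97 on the log2 scale (edgeR adjusted p 1.06e-05, 0.001 and 0.0013). The KO calls of TOP2A and BUB1B were lost without single KO libraries, with adjusted p from 0.134 to 0.224 for TOP2A (AAVS1 KO or HOTSCRAMBL KO, replicate 1 or 2) and from 0.14 to 0.267 for BUB1B (AAVS1 KO replicate 1 or 2, or HOTSCRAMBL KO replicate 2), and that of TOP2A also without the replicate block (0.0568). The CBE calls of PLK1 and CENPF were lost without AAVS1 CBE replicate 1 (adjusted p 0.0748 and 0.0765) or HOTSCRAMBL CBE replicate 1 (0.0504 and 0.051), and that of CCNB1 without AAVS1 CBE replicate 2 (0.167) or HOTSCRAMBL CBE replicate 1 (0.18).

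DREAM is recruited through the cell cycle genes homology region, whose letters TTTGAA were searched on both strands. They were in 12 of the 20 DREAM list promoters at hand (60%), in 15.4% of all 27305 promoters and in 2 of the 25 p53 target promoters (8%). As examples, chosen after their values were seen, matches of 3 genes that differed between the editors and of CDK1, which rose with CBE, are shown along the gene's own strand, with the motif or its reverse complement in capitals. CENPF and MKI67, which also differed, hold matches that are not shown. BUB1, CCNB1, FOXM1 and MYBL2 differed too, but had no match found or no promoter at hand. CCNB2, CDC20, ECT2, KIF23, NUSAP1 and PRC1 hold a match, and their difference between editors did not pass.
BUB1B, chr15:40161034-40161063, plus strand, motif starting at −23: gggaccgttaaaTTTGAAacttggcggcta
PLK1, chr16:23678848-23678877, plus strand, motif starting at −29: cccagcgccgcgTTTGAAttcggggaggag
TOP2A, chr17:40418073-40418102, minus strand, motif starting at −194: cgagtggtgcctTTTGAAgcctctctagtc
TOP2A, chr17:40418030-40418059, minus strand, reverse complement starting at −151: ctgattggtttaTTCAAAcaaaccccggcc
CDK1, chr10:60778158-60778187, plus strand, motif starting at −161: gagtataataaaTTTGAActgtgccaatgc
The motif lies within 30 bases of the RefSeq start in BUB1B and PLK1 and farther upstream in TOP2A and CDK1. The share describes letters in the promoters and says nothing about binding in these cells.

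**Figure D4:**
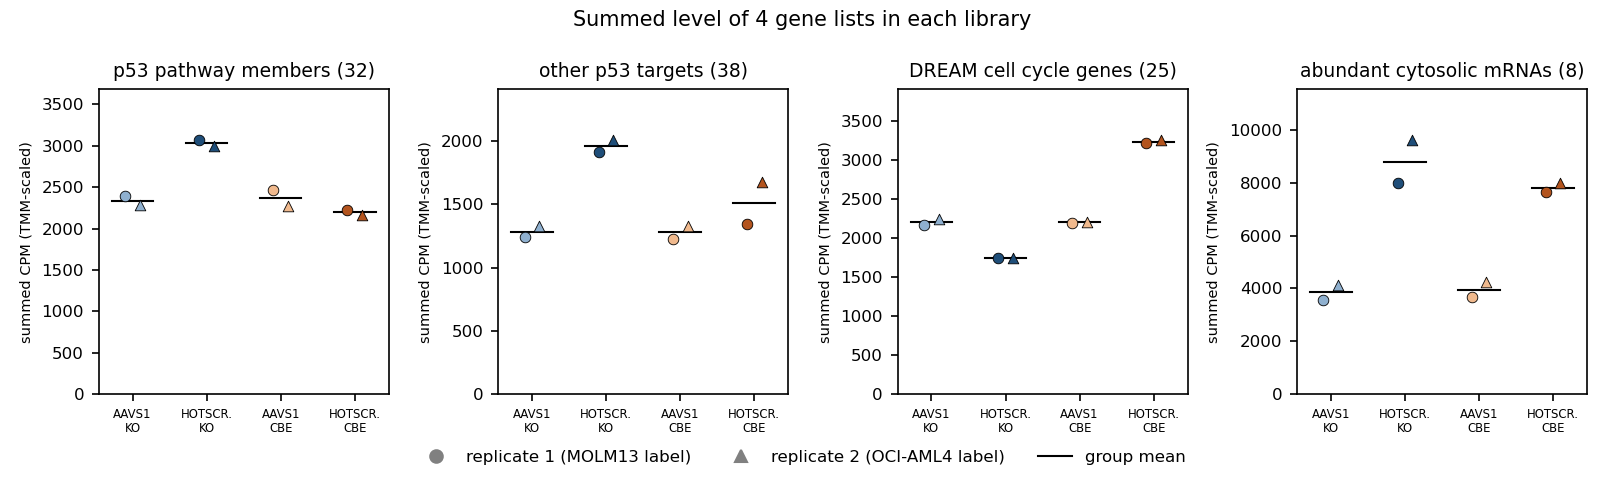
Summed CPM after TMM scaling of 4 gene lists in each library; circles are replicate 1, triangles replicate 2 and the line is the group mean of 2 libraries. The p53 targets sum to 3066 and 2990 CPM in HOTSCRAMBL KO and to between 2167 and 2465 CPM elsewhere, while the cytosolic mRNAs are raised in both HOTSCRAMBL groups.

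Summed over the 32 genes, the level was 2390 and 2284 CPM with Cas9 at AAVS1, 3066 and 2990 with Cas9 at HOTSCRAMBL, 2465 and 2269 with the base editor at AAVS1, and 2222 and 2167 with it at HOTSCRAMBL. The HOTSCRAMBL KO libraries stood apart above and the HOTSCRAMBL CBE libraries were the lowest. The DREAM list gave 2170 and 2239, 1746 and 1743, 2195 and 2203, and 3214 and 3252 CPM in the same order, which places the 2 HOTSCRAMBL groups on opposite sides of their controls. Other features of the HOTSCRAMBL KO libraries also differed from AAVS1 KO. Of the 8 myeloid leukaemia markers, LYZ and CSF1R were called higher with KO in edgeR (25%, where 8.76% of all genes were called). Both also differed between the editors (25%, where 3.19% of all genes did). The other 6 had estimates below 0 with KO, and 0 of them were called. Over the 8 markers the median log2 fold change with KO was −0.20. LYZ, the lysozyme gene of mature myeloid cells, stood at 120 and 141 CPM with Cas9 at AAVS1, 506 and 702 with Cas9 at HOTSCRAMBL, 116 and 142 with the base editor at AAVS1, and 148 and 152 with it at HOTSCRAMBL, and its part in the p53 result was not tested.

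Between the labelled lines 0 of the 31 genes passed in edgeR (6 at an unadjusted p under 0.05), where 0.495% of all genes did. DESeq2 called 3, APAF1, ASCC3 and MDM4, each higher in the libraries labelled MOLM13, where it called 3.23% of all genes. In edgeR these had log2 differences of 0.25, 0.20 and 0.19, and CDKN1A one of −0.25 (edgeR adjusted p 0.398, 0.421, 0.377 and 0.371). The median over the 31 genes was 0.01.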

How the data were processed

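The authors deposited raw whole-number counts for each gene in 8 libraries. They ran featureCounts 2.0.6 on the Ensembl 112 annotation of GRCh38, with no strand option and leaving out reads placed at several positions, per the file headers. The aligner and duplicate handling are not given in the sources used here. The records of 2 genes broken over several lines were rejoined, symbols were found for 62541 of 63140 identifiers, and 0 columns of other samples were left out.

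The test was the quasi-likelihood F-test of edgeR 4.0.16 (R 4.3.3) with robust estimation, TMM scaling and filterByExpr at a minimum count of 10, which kept 24057 genes. The model held the 4 groups and the replicate number over all 8 libraries, leaving 3 residual degrees of freedom. Adjusted p-values are Benjamini-Hochberg over all genes tested with a threshold of 0.05, and intervals are at 95%. The contrasts compared HOTSCRAMBL with AAVS1 for each editor, the difference of these effects, AAVS1 KO against AAVS1 CBE and replicate 1 against replicate 2. CPM values are after TMM scaling, except the marker and floor values, which use total counts.

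The pairing comes from the labelled line, replicate 1 MOLM13 and replicate 2 OCI-AML4. Deviations from group means correlated across tested genes between groups with r from 0.0154 to 0.0411. Among genes above the median level r ran from 0.0424 to 0.123. With r this low, and 0.495% of all genes called between the labelled lines, most genes showed little difference shared by the pairs. Single genes did differ: BBC3 was called between the lines (edgeR adjusted p 3.58e-05), as 1 of the 34 other p53 targets tested (2.94%). The pairing therefore rests on the titles. On data simulated for the KO contrast, with 200 of 24056 genes changed by 1 on the log2 scale, 31.5% were recovered and 0% of calls were false. The counts were drawn from the model's own fitted spread, with no difference between lines. Changed genes were picked from the more abundant ones, and were fewer than the 2108 genes called with KO in the real data. The simulation therefore cannot give the rate of false calls in the real libraries.

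The p53 targets and the other lists were chosen with earlier results of these data known. Values of every library are given for p53 targets called in the KO, CBE or difference contrast and for CDKN1A and MDM2 (1 further gene under this rule is not reported here), and from each other list up to 5 called genes per editor with the smallest p are named. GDF15, TRIAP1, TIGAR, TP53I3, GADD45A and LYZ were given by library after their values were seen. CDK1, shown only for its shared motif, was also chosen after its values were seen. Alternatives were DESeq2 1.42.0, its size factors, limma-voom (limma 3.58.1), no TMM, no filter, a minimum count of 30, no replicate block, only the 4 libraries of a contrast, leaving out each library and, chosen after seeing the data, an older quasi-likelihood estimate. Promoters are from RefSeq (GRCh38.p14).

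Totals of 20548300 to 37970163 counts limit precision for low genes, and floors cover counting error only, since no molecular identifiers are described and reads may be copies of one molecule.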

Additional observations from a re-analysis of the deposited data

Results flagged for a closer look

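The HOTSCRAMBL effect differed between the editors for the 16 genes given here, by the direct edgeR test of the difference. They are p53 targets, or genes named from the other pathway lists because they were called in these libraries. BUB1, FOXM1, MKI67, LYZ and CSF1R, also named above, differed too. Over all genes tested, 3.19% differed, and the 16 genes are no fair sample to set against that share. Values are log2 effects with KO minus those with CBE. Among the p53 targets they were 3.41 for PLK2, 1.86 for BTG2, 1.53 for ZMAT3, 1.19 for PLK3, 0.949 for CDKN1A and 0.817 for MDM2. Outside the 32 genes they were 2.45 for ALOX5, 2.26 for PMAIP1, 1.18 for IER5 and 1.1 for TRIM22. The IER5 difference was lost without AAVS1 CBE replicate 1 or HOTSCRAMBL CBE replicate 1 (edgeR adjusted p 0.0607 and 0.0512), and that of TRIM22 without AAVS1 KO replicate 2 (0.0753).

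For the DREAM genes the differences were negative: −1.65 for TOP2A, −1.48 for CCNB1, −1.39 for CENPF, −1.29 for PLK1, −0.921 for BUB1B and −0.787 for MYBL2. The MYBL2 difference was lost without AAVS1 KO replicate 2 (edgeR adjusted p 0.0576). That of BUB1B was lost without any 1 of the 8 libraries, with adjusted p up to 0.279 without AAVS1 KO replicate 1, and without the replicate block (0.08). Those of PLK1 and CCNB1 were lost without any 1 of 5 and of 6 libraries, with adjusted p up to 0.0911 (AAVS1 KO replicate 1) and 0.136 (AAVS1 CBE replicate 2).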

How the results depend on the processing

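Of 17 results in which a p53 target was called, 5 kept their call under every alternative run: MDM2, CDKN1A and PLK2 with KO, PIDD1 with CBE and PLK2 between editors. Of 45 called results over all named genes, 15 kept their call under every alternative. None of the 45 changed direction. Leaving out 1 library gave 3 to 8 called p53 targets with KO (8 with all libraries) and 677 to 1674 called genes (2108), 1 to 2 targets with CBE (3) and 586 to 1885 genes (2124), and 2 to 4 targets between editors (6) and 226 to 372 genes (767). The median log2 fold change of the p53 targets with KO, 0.385 with all libraries, then ran from 0.26 to 0.473. It was lowest without HOTSCRAMBL KO replicate 2 and highest without AAVS1 KO replicate 1. Their medians ran from −0.126 to −0.0766 with CBE and from 0.38 to 0.51 between editors. Between controls they ran from −0.0402 to 0.00197, above 0 without AAVS1 CBE replicate 1. Between lines they ran from −0.0373 to 0.0323, below 0 without any 1 AAVS1 library (−0.0371, −0.0373, −0.0196 and −0.0192). Between lines 26 to 65 genes were called (119). Only the 4 libraries of a contrast left 3 targets and 780 genes with KO, and 1 target and 677 genes with CBE, where fewer samples are tested. DESeq2 called 4231 genes with KO, 8 targets and 3439 genes with CBE, 10 targets and 2291 genes between editors (median 0.45), 35 genes between controls, and 3 targets and 778 genes between lines. Limma-voom called 1 gene between controls and 250 between lines, and the older quasi-likelihood estimate, chosen after seeing the data, 193 between lines. Without TMM the median was 0.23 with KO, −0.25 with CBE (6 targets) and 0.40 between editors, where DESeq2 size factors gave 0.45 and a minimum count of 30 gave 0.44. Without the replicate block, which pairs libraries by labelled line, 503 genes differed between editors, with 8, 2 and 5 targets called with KO, with CBE and between editors. Apart from the effect of fewer samples, the cause was not tested. Of the 31 p53 targets tested, GDF15 had the lowest counts per library, from 6 to 130, which limits its precision.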
